A study of Zea mays with 7 samples.

Results

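Small RNAs bound to AGO104 were compared along chromosome 2 between mop1-1/mop1-1 homozygotes (mm) and Mop1-1/mop1-1 heterozygotes (Mm), in bins of 1 kb. The comparison used 4 of the 7 libraries of the series, the 2 of mm and the 2 of Mm, chosen by their labelled genotype. Both genotypes carry the mop1-1 mutation in the B' genetic stock, on both copies of the gene in mm and on 1 copy in Mm, and the b1 epiallele of mm plants is called B-I like. The 2 libraries of B73, an inbred line with a neutral b allele, were not part of the main comparison. They served to class the bins, in an alternative filter and fit, and as values beside some results. Their depth also went into placing the b1 repeats and the genes beyond them. AGO104 was immunoprecipitated from ears, immature per the labels, with home-made antibodies that the labels name as AGO104-AGO105 for every library. The replicates are biological per the labels, and p-values measure the spread between 2 libraries of each genotype.

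MOP1 is the maize homolog of the RNA-dependent RNA polymerase RDR2, which copies transcripts of RNA polymerase IV into double-stranded RNA. A Dicer-like enzyme cuts this RNA into 24-nt siRNAs, which Argonaute proteins of the AGO4 clade carry to matching loci in RNA-directed DNA methylation (RdDM). AGO104 is a maize Argonaute homologous to Arabidopsis AGO9. In maize, RdDM is known to act mostly on short stretches of chromatin that flank genes, while the heterochromatin between genes is kept silent largely by other pathways. Small RNAs that do not need MOP1, such as microRNAs and fragments of structured RNAs, are made by other routes.

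The mm libraries held 936656 and 1742053 alignments on chromosome 2, and the Mm libraries 1555520 and 1417599. The coverage of each bin is given in scaled units, where the summed coverage of a library is 1000000, so that 1 alignment is worth 0.574 to 1.07 units on average. Whole ears were used, so fewer cells of a type and less small RNA per cell cannot be told apart, and these data hold no transcripts with which to check the tissue. Among stretches that touched no other covered stretch, most were 16 to 21 bases long, none was 22, 23 or 24 bases long in any library, and 0.121% to 0.436% were longer. The relation between these lengths and the 24-nt class was not tested. No genome sequence was used here, so sequences of the bins are not shown, and positions are given as the coverage tables give them. The tables were read as a composite chromosome with the b1 repeats (b1TRs) of B' in place, which the labels do not state. This was inferred from a shift of 7855 bp that best fits tRNA genes beyond b1, and from coverage that repeats itself between the units of the array (mean correlation 0.633, next best place 0.142).

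In mm, AGO104-bound small RNA was lower over a large share of the tested bins and higher over a smaller set. Of 243684 bins, 33967 held a mean of at least 4 scaled units over the 4 libraries and were tested. The test was limma on log2(scaled coverage + 1) with Benjamini-Hochberg adjustment over all tested bins. At an adjusted p under 0.05, 15640 bins (46%) were lower and 3903 (11.5%) were higher in mm, and the 2 genotypes did not overlap in any of them. The median log2 change, mm over Mm, was -2.55 in lower bins, 1.34 in higher bins and -0.91 over all tested bins. With a single Mm library the median log2 change was -0.840 or -0.997, and with a single mm library -0.917 or -0.854. Such a fit takes its spread from the other genotype alone. Far fewer bins passed on the mm spread alone than on the Mm spread alone. The calls therefore depend on pooling the spreads of both genotypes, and their behaviour under unequal spreads was not tested. With all libraries, both mm values lay below both Mm values in 18587 tested bins (54.7%) and above them in 8104 (23.9%).

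The changes fell into 2 humps rather than around a single centre. Of the tested bins, 34.0% had a log2 change under -2, and 41.0% had one between -0.5 and 1.5. Steps of 0.5 held most bins from -3 to -2.5, with 3474, and again from 0 to 0.5, with 4051, against 2180 from -1.5 to -1. The position of 0 on this axis depends on the scaling, and so does the balance of the calls. The share of lower bins among called bins was 80.0% here. It was 63.9% with median-ratio scaling (13001 lower, 7350 higher) and 52.5% when libraries were scaled outside the top 1% of bins (9911 lower, 8978 higher). These scalings moved the median log2 change to -0.41 and -0.12. Differences between kinds of place are therefore given against the median of all tested bins. The filter matters too, since a bin absent in mm is tested only if Mm is high there. With bins chosen on a mean of 4 units in B73, which the comparison does not use, 17022 of 34611 were lower and 3195 higher. At a mean of 16 units over the 4 libraries, 1887 of 6057 were lower and 2521 higher.

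**Figure D1:**
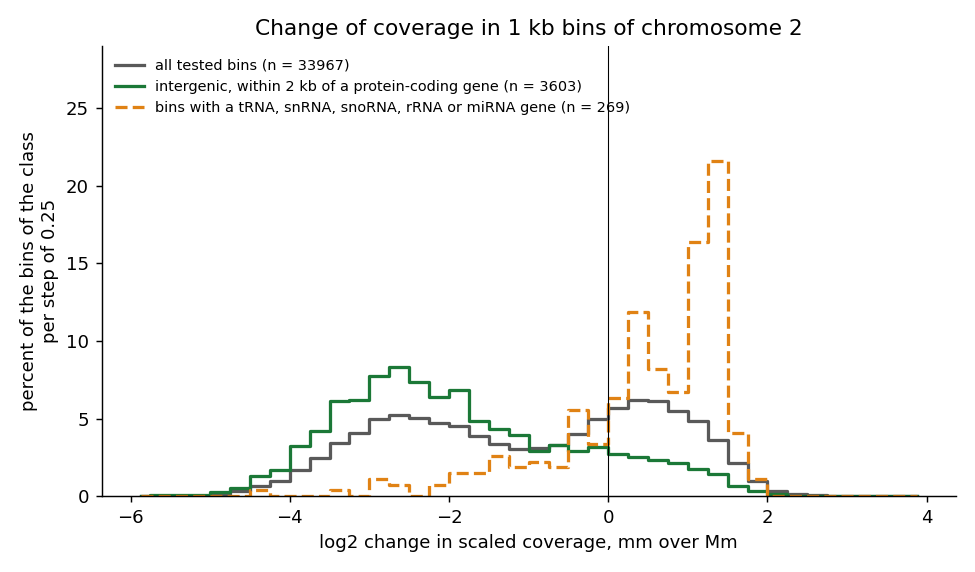
Distribution of the log2 change in scaled coverage, mm over Mm, in 1 kb bins (x axis), as the percent of bins of each class per step of 0.25 (y axis). All tested bins formed 2 humps, intergenic bins within 2 kb of a protein-coding gene sat mostly in the left one, and bins with structured RNA or miRNA genes mostly in the right one.

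The coverage of mm was concentrated in few places. Bins with any coverage made up 49.4% and 63.5% of all bins in mm, and 82.3% and 77.3% in Mm. The 100 bins with the highest coverage held 31.5% and 31.4% of the coverage in mm, and 11.2% and 15.9% in Mm. The fewest bins that together held 50% of the coverage numbered 517 and 522 in mm, against 12577 and 8336 in Mm. In log2 coverage of the tested bins, Pearson's r was 0.886 between the mm libraries and 0.865 between the Mm libraries, and 0.265 to 0.38 between an mm and an Mm library. These correlations are across bins, which are not independent replicates and share the depth of their library.

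Loss was most frequent next to genes and declined with distance from them. Of tested intergenic bins less than 1 kb from the nearest protein-coding gene, 74.0% were lower and 3.67% higher in mm, with a median log2 change of -2.29. At 1 to 2 kb, 67.8% were lower and 4.55% higher, with a median of -2.05. The share of lower bins was 60.1% at 2 to 5 kb, 52.0% at 5 to 10 kb, 41.4% at 10 to 50 kb and 36.8% beyond 50 kb. The share of higher bins ran the other way and reached 15.2% beyond 50 kb, where the median was -0.19. Against the median of all tested bins, the first class stood 1.38 lower and the last 0.72 higher on the log2 scale. Of all bins in these classes, 47.0% were tested under 1 kb and 9.18% beyond 50 kb, so the filter selected more strongly far from genes. The order of the 6 distance classes by median was the same with bins chosen on B73 (-2.17, -2.0, -1.83, -1.66, -1.06 and -0.62). The medians of the classes up to 10 kb stayed negative under every scaling, whereas those at 10 to 50 kb and beyond 50 kb were 0.04 and 0.32 with median-ratio scaling. At a mean of 16 units the median over all bins was 0.58 and that at 5 to 10 kb was 0.27, with 37.5% lower and 37.3% higher, while the classes under 2 kb had -3.04 and -1.98.

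Expressed as shares of each library, intergenic bins less than 1 kb from a protein-coding gene held 1.61% and 1.56% of the coverage in mm, against 3.38% and 3.22% in Mm. The 8866 intergenic bins within 2 kb held 5.17% and 5.24% in mm, and 8.52% and 8.33% in Mm, a ratio of 0.618. Beyond 50 kb the shares were 24.6% and 24.8% in mm, and 21.1% and 21.7% in Mm. The genotypes did not overlap in any of these classes, and each gave p = 0.3333 in the two-sided exact permutation test, which is the smallest p that 2 against 2 libraries allow.

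**Figure D2:**
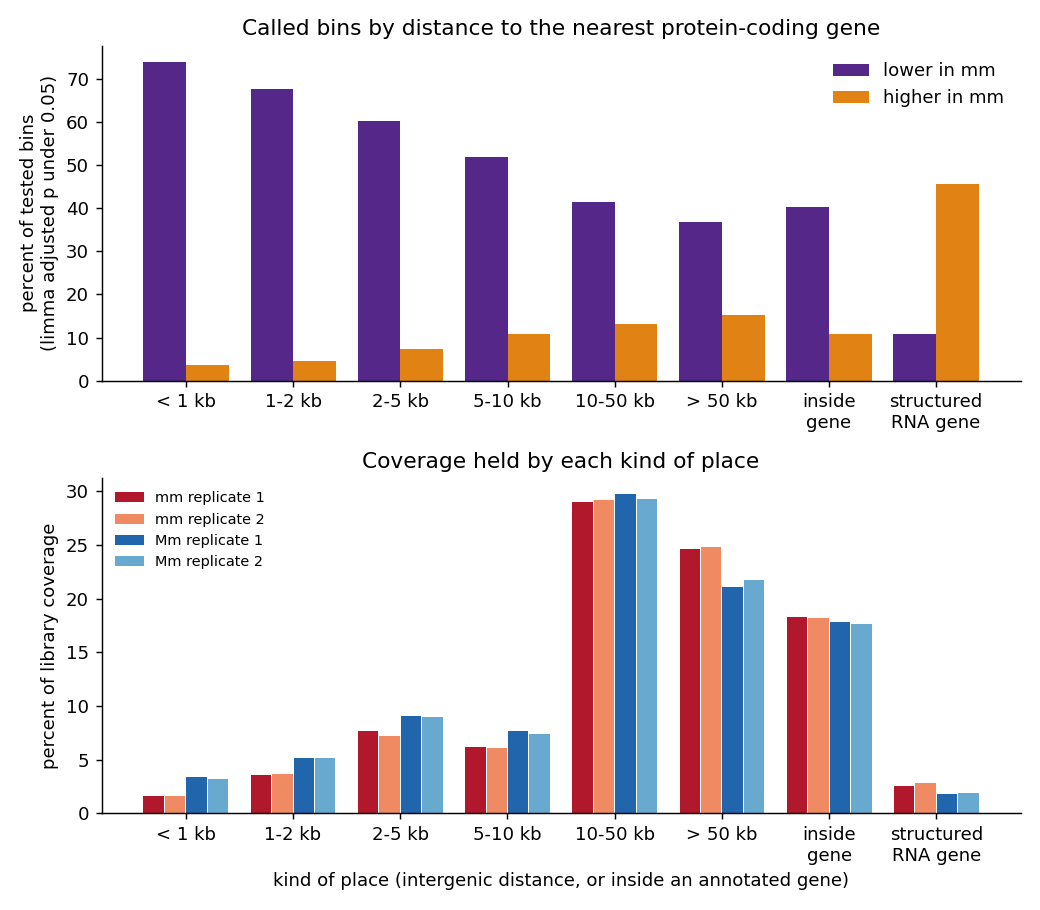
Upper panel, percent of tested bins lower or higher in mm (y axis) by kind of place (x axis). Lower panel, percent of the coverage of each of the 2 mm and 2 Mm libraries held by each kind. Lower bins declined from 74.0% beside genes to 36.8% beyond 50 kb, and structured RNA genes showed the reverse balance.

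The pattern changed at the edge of the gene. In 100-base steps, covered bases, scaled to 1000000 per library, were 0.66 and 0.63 in mm at 500 to 600 bases outside the nearest gene edge, against 1.06 and 1.10 in Mm. At 400 to 500 bases inside the edge they were 0.84 and 0.89 in mm, and 0.59 and 0.60 in Mm. Both mm libraries lay below both Mm libraries in every step up to 6000 bases outside. In the step from 6000 to 6100 bases they overlapped, with 0.43 and 0.39 in mm, and 0.42 and 0.42 in Mm. In most steps from 7100 bases on, the mm libraries were no longer both below the Mm libraries. The first 0.5 kb outside genes held 1.83% and 1.71% of the coverage in mm, against 3.72% and 3.50% in Mm, a ratio of 0.491. The ratio was 0.774 from 0.5 to 1 kb, 0.621 from 1 to 2 kb and 0.798 from 2 to 5 kb. The outer 1 kb inside genes held 7.70% and 7.66% in mm, and 5.61% and 6.003% in Mm. More than 1 kb inside genes the genotypes overlapped, with 7.85% and 7.95% in mm, and 8.02% and 7.63% in Mm. These are shares of a library. Unscaled, bins over protein-coding genes had a mean of 30.2 and 48.0 covered bases in mm, against 94.5 and 79.3 in Mm. The annotation used gave no strand, so both edges of each gene were pooled and upstream cannot be told apart from downstream.

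**Figure D3:**
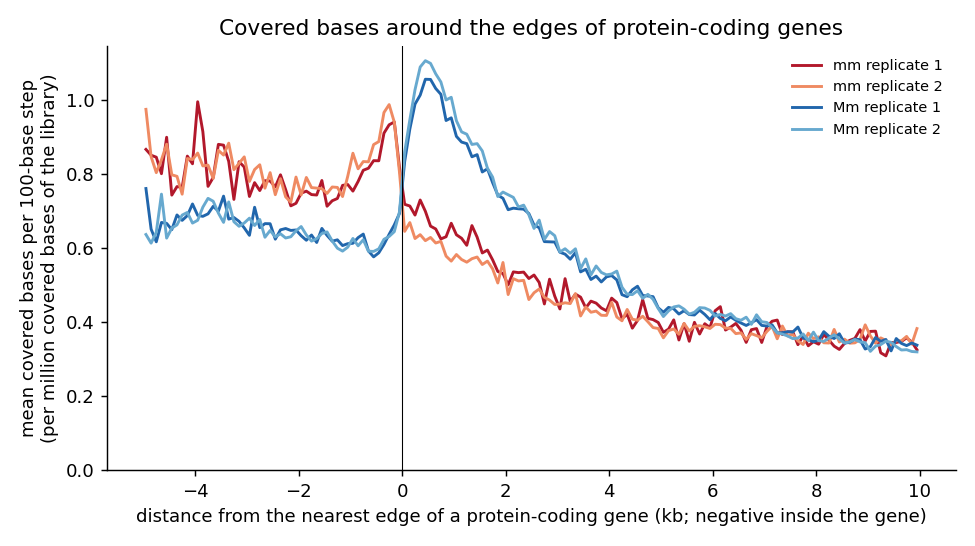
Mean covered bases per 100-base step, scaled to 1000000 covered bases per library (y axis), by distance from the nearest edge of a protein-coding gene (x axis, negative inside the gene), for the 2 mm and 2 Mm libraries. The Mm libraries peaked just outside the edge, where the mm libraries had no peak. Inside genes the mm libraries lay above the Mm libraries in these scaled values, which are shares of a library and not amounts.

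The loss beside genes was spread over most genes and did not rest on a few. Of 4090 protein-coding genes, 3673 had at least 1 kb of flank outside other genes and a mean of at least 4 scaled units in the 2 kb on both sides. Both mm libraries lay below both Mm libraries in the flanks of 3134 of these genes (85.3%), and above them in 207 (5.64%). Over all tested bins, these shares were 54.7% and 23.9%, and 46% and 11.5% passed the test. Those are single bins of 1 kb, whereas a flank sums up to 2 kb on both sides. The shares therefore differ in unit and filter. The median log2 change of the flanks was -1.79, with quartiles of -2.54 and -0.94. Bins inside protein-coding genes changed less, with 40.3% lower, 10.8% higher and a median of -0.63, which became 0.20 with scaling outside the top 1% of bins.

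Of the genes of the small RNA and anthocyanin pathways, 6 were found on chromosome 2 by symbol. Over these 6 genes, 4 of 6 tested bins in the 2 kb flanks were lower in mm and none higher. Of all tested intergenic bins within 2 kb of genes, 70.3% were lower and 4.19% higher, and the share in these 6 bins was near that. The flanks of mop1 itself held 6.66 and 2.28 scaled units in mm, against 26.9 and 27.2 in Mm, and both tested bins there were lower. Its gene body held 11.6 and 13.2 in mm, and 19.8 and 13.9 in Mm, with no bin tested. This is small RNA coverage and not the mop1 transcript, so it does not check the genotype. The flanks of rmr2, a gene needed to maintain paramutated states, held 4.42 and 2.34 in mm and 15.1 and 19.1 in Mm, and the 1 tested bin was lower. The flanks of rmr7, which encodes a subunit that RNA polymerases IV and V share, held 2.30 and 2.18 in mm, and 11.4 and 16.3 in Mm, without a tested bin. Inside rmr2, the 1 tested bin was higher, with 150 and 136 scaled units over the gene in mm, and 63.4 and 72.2 in Mm. The DNA methyltransferase gene met5 also had more coverage over its body, at 503 and 720 in mm against 335 and 309 in Mm. Of its 4 tested bins, 1 was higher and 1 lower. In the anthocyanin list, fht1, a flavanone hydroxylase gene, had 0 of 1 tested bins called, and whp1, a chalcone synthase gene, had 1 of 2 lower in its body and 0 of 1 called in its flanks.

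Bins over genes of structured RNAs mostly kept or gained coverage. Of the 269 tested bins with a tRNA, snRNA, snoRNA, rRNA or miRNA gene, 123 (45.7%) were higher and 29 (10.8%) lower, with a median log2 change of 0.74, against 11.5% and 46% over all tested bins. Together the 334 bins of this kind held 2.54% and 2.81% of the coverage in mm, and 1.76% and 1.91% in Mm. The 2 B73 libraries lay further apart, at 3.88% and 1.47%. The members differed. Of 69 bins with rRNA genes, 68 were higher and none lower, with a median of 1.34. These 68 are among the 123 higher bins. Most of them lay in 1 cluster of 56 kb, so they are not separate loci. Of 57 tested bins with snoRNA genes, whose RNAs guide the modification of other RNAs, 34 were higher and 3 lower, with a median of 1.12. Of 21 with snRNA genes, which encode RNAs of the spliceosome, 9 were higher and 2 lower, with a median of 0.82. The 111 tRNA gene bins were nearly balanced, with 12 higher and 19 lower, and their median of 0.24 became -0.07 when libraries were scaled to tRNA, snRNA and snoRNA gene bins. The rRNA, snRNA and snoRNA medians stayed positive under the 4 scalings used.

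The snoRNA gene with the largest rise, LOC111591031, lay in a bin with 56.4 and 34.6 scaled units in mm, against 8.88 and 12.3 in Mm (log2 change 1.98, limma adjusted p = 0.000764). The largest fall among snoRNA genes, at LOC111591033, was to 5.08 and 5.66 in mm, against 26.7 and 20.6 in Mm (-2.90, limma adjusted p = 0.000434). The bin of the snRNA gene LOC118476582 held 181 and 155 units in mm, and 64.1 and 65.0 in Mm (1.36, limma adjusted p = 0.00204). The largest fall among tRNA genes was in the bin of a gene annotated TRNAI-AAU, which had 3.39 and 0.553 in mm, against 47.6 and 55.6 in Mm (-4.33, limma adjusted p = 5.02e-05). In each of these bins the genotypes did not overlap. A bin is 1 kb long and these genes are shorter, so the values are those of the bin and not of the gene alone. Reads shared between copies of such genes can be placed at more than one.

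The share of lower bins at microRNA genes was near that of all bins. Of the 11 tested bins with a miRNA gene, 5 (45.5%) were lower and none higher, against 46% and 11.5% over all tested bins, with a median log2 change of -0.23. Counted by gene, 11 of 26 lay in tested bins, of which 4 were lower, and the median was 0.01. The bin of MIR2118g, from a family known to trigger phased siRNAs in grass flowers, held 2.24 and 3.15 scaled units in mm, against 28.7 and 31.4 in Mm (log2 change -2.94, limma adjusted p = 0.000286). The bin of MIR396c held 26.2 and 9.46 in mm, and 41.3 and 31.2 in Mm (-1.13, limma adjusted p = 0.0415). The largest positive value was at MIR160f, with 7.87 and 16.7 in mm, and 7.81 and 6.95 in Mm (0.58, limma adjusted p = 0.28). There the genotypes did not separate beyond the spread of the mm libraries.

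The kind of small RNA that a bin carried in B73 was related to what happened in mm. Bins were classed by the share of isolated B73 stretches that were 19 bases long, the commonest length in B73 (40.1% and 39.0%) and Mm. Over the whole chromosome this share was 14.3% and 10.9% in mm, against 40.7% and 40.7% in Mm. Where 19-base stretches made up under 10% in B73, 8.97% of tested bins were lower and 20.0% higher in mm, with a median log2 change of 0.38. Where they made up 60% or more, 72.1% were lower and 3.94% higher, with a median of -2.16. The 5 classes between lay in order, with medians of 0.14, -0.25, -1.04, -1.63 and -1.87. The classes of at least 40% together held 14.0% and 13.7% of the coverage in mm, and 20.7% and 19.9% in Mm, a ratio of 0.680 (two-sided exact permutation test, p = 0.3333). This covers the 48740 bins with at least 10 isolated B73 stretches.

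Distance from genes and length class were each associated with loss within strata of the other. In bins of at least 40% 19-base stretches, 76.6% were lower within 2 kb of genes, 72.4% at 2 to 10 kb and 63.5% beyond 10 kb. In bins under 20%, the shares were 36.8%, 22.2% and 9.78% in the same order of distance. Inside protein-coding genes they were 53.7% at 40% or more and 14.4% under 20%.

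Loss also differed with how widely a bin was covered in B73, though not in strict order. With fewer than 25 covered bases in B73, only 200 of 47650 bins (0.42%) were tested, against 83.2% at 200 to 400 bases. A bin of this class passes the filter only where mm or Mm is itself high. Of the 200, 2.50% were lower and 38.5% higher. All 47650 together held less of the coverage in mm (2.08% and 2.11%) than in Mm (3.09% and 2.68%). The share of lower bins was 4.56% at 50 to 100 bases, 33.0% at 100 to 200 and 74.9% at 200 to 400, where 3.72% were higher. In the widest class, of 400 or more bases, 69.0% were lower and 10.1% higher. Lower bins had a median of 243.5 covered bases and a mean depth of 2.28 in B73, against 107.5 bases and 9.41 in higher bins. Over all tested bins these were 183.5 bases and 2.32, so the depth of lower bins was near that of all.

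**Figure D4:**
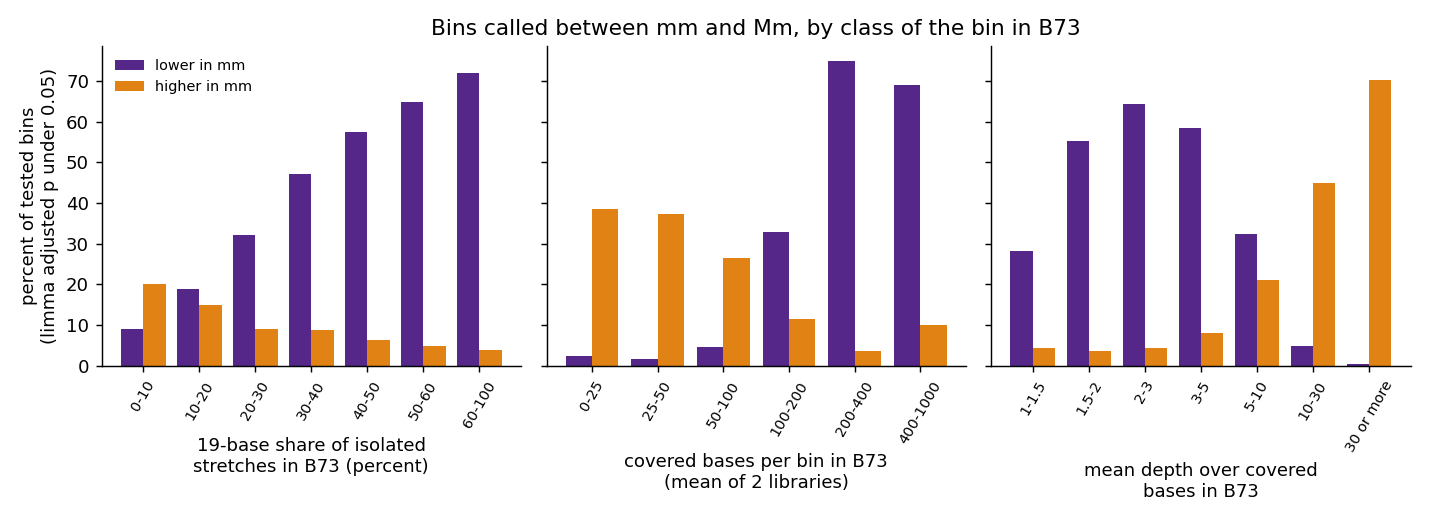
Percent of tested bins lower or higher in mm than in Mm (y axis), by 19-base share of isolated stretches, covered bases and mean depth of the bin in B73 (x axes). Lower bins reached 72.1% in the class richest in 19-base stretches, and higher bins reached 70.2% at a depth of 30 or more.

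The places that were deepest in B73 held a larger share of the coverage in mm than in Mm. The 1470 bins with a mean depth of 30 or more in B73 held 51.7% and 51.6% of the mm coverage, against 18.2% and 26.0% of the Mm coverage, a ratio of 2.34. Of the 1435 of them that were tested, 1008 (70.2%) were higher and 5 lower, with a median log2 change of 1.20. Leaving out those with structured RNA or miRNA genes gave 935 higher and 5 lower of 1348. At the other end, the 179666 bins with a depth of 1 to 1.5 in B73 held 15.0% and 15.1% in mm, and 31.3% and 26.7% in Mm.

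**Figure D5:**
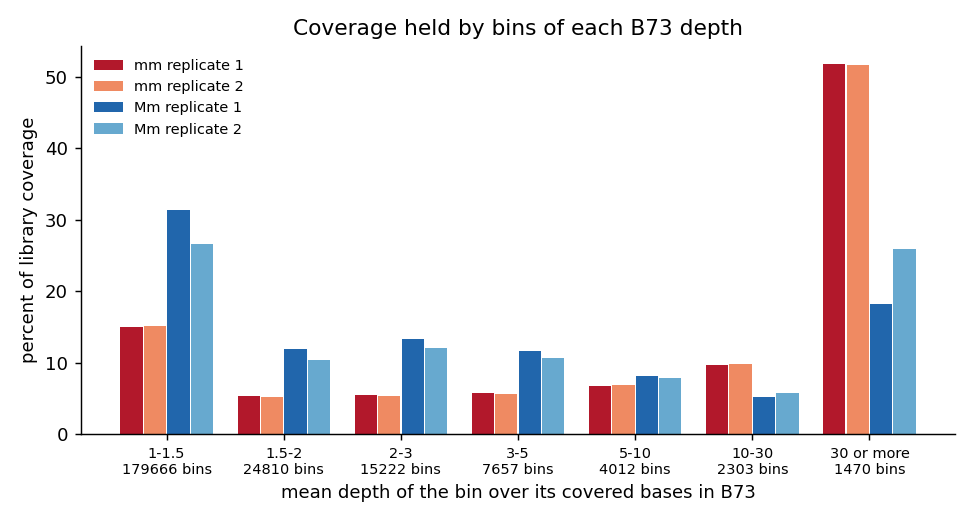
Percent of the coverage of each library (y axis) in bins classed by their mean depth over covered bases in B73 (x axis, with the number of bins). Bins of depth 30 or more held 51.7% and 51.6% in mm, and 18.2% and 26.0% in Mm.

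The bins with the highest coverage were short peaks. The highest, chr2:157624001-157625000, lay 1177 bp from the transcribed pseudogene LOC100192610 and held 20476 and 18624 scaled units on 23 and 31 covered bases in mm, against 7885 and 11482 units on 83 and 54 bases in Mm. Its log2 change of 1.04 did not pass the test (limma adjusted p = 0.202). A pair of bins inside the lncRNA gene LOC109944606, chr2:214720001-214721000 and chr2:214727001-214728000, had nearly the same values as each other, and a read placed at both is counted in each. The bin from 214720001 held 15214 and 15350 units in mm, against 4561 and 6109 in Mm (1.53, limma adjusted p = 0.0435).

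The bins with the largest falls were nearly empty in mm. By a rule of size, the 10 largest falls were named from 8951 bins that passed the test, did not overlap and held at least 10 units in both Mm libraries. The first, chr2:220257001-220258000, held 0 and 0.520 scaled units in mm, against 80.3 and 65.7 in Mm (log2 change -5.90, SE 0.421, limma adjusted p = 2.81e-05). This was 1 alignment in the mm libraries and 204 in the Mm libraries, a ratio per alignment of the library of 0.00544 (95% exact interval 0.000137 to 0.0307, counting error only). The bin lay 46335 bp from the nearest gene, LOC100279484. The third, chr2:233630001-233631000, lay 203 bp from LOC103648099 and held 0 and 1.11 in mm, against 82.3 and 73.2 in Mm (-5.76, SE 0.445, limma adjusted p = 2.81e-05). In Mm its coverage extended over 386 and 448 bases. The tenth, chr2:5626001-5627000, lay 119 bp from LOC100303866 and held 0.968 and 0 in mm, against 67.1 and 61.9 in Mm (-5.54, SE 0.445, limma adjusted p = 2.81e-05). The other 7 ranged from -5.77 to -5.58, with 1 inside the gene LOC100192645 and 1 within 1008 bp of LOC100280954, and all 10 had coverage in both B73 libraries.

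The bins with the largest rises were smaller in extent. The first of the 10 named from 3317 bins, chr2:231909001-231910000, held 25.2 and 18.7 scaled units in mm on 18 bases each, against 0.622 and 0.496 on 18 and 13 bases in Mm (3.87, SE 0.466, limma adjusted p = 6.91e-05). Its 57 alignments in mm against 1 in Mm gave a ratio of 63.3 (95% exact interval 10.9 to 2542). The second, chr2:79532001-79533000, held 238 and 144 in mm, against 25.9 and 11.3 in Mm (3.35, SE 0.402, limma adjusted p = 6.79e-05). The only one inside a protein-coding gene, chr2:205097001-205098000 in LOC100276279, held 256 and 317 in mm, and 31.1 and 50.98 in Mm (2.81, SE 0.331, limma adjusted p = 6.24e-05). None of the 10 rises lay within 2 kb outside a protein-coding gene, and 3 of the 10 falls did. Of all higher bins 3.87% did, and of all lower bins 16.2%. Sets of 10 bins are too small to be told apart from these shares.

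Complete absence in mm was rare at this depth. Of 21501 bins with at least 10 alignments in each Mm library, 567 (2.64%) had none in either mm library, of which 18.2% were intergenic within 2 kb of a gene, against 13.1% of the 21501. A count of 0 in the pooled mm libraries allows up to 1.12 alignments per 1000000 (a limit of 3 counts). In the reverse direction, 0 of 7749 bins with at least 10 alignments in each mm library had none in Mm.

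At the scale of 0.5 Mb, loss and gain were mixed. Each of the 488 windows held at least 1 lower and 1 higher bin, which 15640 lower and 3903 higher calls make likely for any spread. In 138 windows the summed coverage was higher in mm, and in 128 of these the lower bins still outnumbered the higher ones. Those 138 windows held 4052 lower and 1392 higher bins among 9493 tested. The excess of lower calls over all bins makes such outnumbering likely too. The 5 highest bins of a window held a median of 46.1% of its coverage in mm and 19.3% in Mm. Of the variance of the log2 change over tested bins, 4.39% lay between windows and 95.6% within them.

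Runs of called bins can join only neighbouring tested bins, of which the filter on low values left 12064 pairs, so their length is limited by that filter. Where both bins of such a pair were called, 88.2% of 5088 pairs went the same way. At a distance of 100 kb, where the log2 changes were uncorrelated (r = -0.00146), 69.2% of 1626 called pairs did. The 15640 lower bins formed 11398 runs, of which 72.7% were single bins, and the longest was 9 kb, chr2:96351001-96360000, more than 50 kb from protein-coding genes. It held 11.8 and 7.05 scaled units in mm, against 144 and 132 in Mm. The 3903 higher bins formed 3657 runs, of which 95.8% were single bins. The longest, chr2:227618001-227674000, was a 56 kb cluster of rRNA genes and held 6465 and 7580 units in mm, against 2616 and 2827 in Mm. The correlation of the log2 change between bins was 0.36 at 1 kb, 0.21 at 2 kb and 0.07 at 10 kb, as a description, since bins of a library are not independent. Along 10 Mb segments, the share of lower bins ranged from 30.1% at 120 to 130 Mb to 53.5% at 210 to 220 Mb.

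The number of covered bases gave a weaker picture at single bins. Of 88964 bins tested for covered bases by limma, 0 (0%) were lower and 0 (0%) higher at an adjusted p under 0.05, and 17068 had an unadjusted p under 0.05. At a mean of 16 units, 745 of 4780 bins were lower and 1978 higher. Among the bins lower by summed coverage, 14927 of 15591 also had fewer scaled covered bases in mm, with a median log2 change of -1.20. Among the higher bins, 2966 of 3489 had more, with a median of 0.83. Over all 88964 bins the median was 0.05. Both measures come from the same alignments, so their agreement in called bins is not separate support.

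The lengths shifted in called bins and in all others. In lower bins, 19-base stretches made up 26.8% and 16.2% of the isolated stretches of 16 to 21 bases in mm, against 48.0% and 48.8% in Mm. In higher bins they made up 7.34% and 5.55% in mm, and 25.5% and 26.0% in Mm. Among the same stretches of the higher bins, those of 16 bases were 38.8% and 48.2% in mm, against 27.0% and 27.4% in Mm. In tested bins that were not called, 19-base stretches made up 10.2% and 7.93% in mm, and 31.7% and 30.1% in Mm. In bins not tested they made up 14.0% and 11.3% in mm, and 41.6% and 41.9% in Mm.

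The b1TRs themselves held little coverage in either genotype. The 7 bins over the repeats, placed as inferred above, had 1.03 to 4.52 scaled units in the mm libraries and 1.24 to 6.75 in the Mm libraries, from 1 to 8 alignments per bin in mm and 2 to 10 in Mm. The only tested bin, chr2:19764001-19765000, held 4.18 and 3.87 in mm, against 2.52 and 6.75 in Mm, with a log2 change of -0.06 (SE 0.527, limma adjusted p = 0.933). A difference was not detectable there at this depth. In each of the 7 bins the values of the genotypes overlapped, and the array as a whole was not tested. The paper reports that AGO104-bound siRNAs of a single length class mapped to the b1TRs in Mm but not in mm. It used a separate alignment to the repeats and their flanks. The values here pool all lengths, and which alignment they hold is not known, so they do not test that result.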

How the data were processed

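Small RNAs co-immunoprecipitated with AGO104 were sequenced from 2 libraries each of mm, Mm and B73. Per the paper, the authors trimmed reads with Trimmomatic, kept those of 15 to 35 nt, and aligned them with Bowtie 1.2.2, allowing mismatches and several placements of a read. The deposited tables give coverage, a signal that counts the aligned reads over each interval of chromosome 2, in whole numbers and not scaled. Which of the paper's alignments they hold is not given in the sources used here.

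Coverage was summed in bins of 1 kb, scaled to 1000000 per library and fitted with limma 3.58.1 (R 4.3.3) with a trend, on log2(value + 1), for bins with a mean of at least 4 units. P-values were adjusted by Benjamini-Hochberg over all tested bins. The procedure was tested on simulated data in which both genotypes had the same spread. That simulation does not show how the calls behave where the spreads differ. Count models were not used because depth is not a read count. The covered bases of each bin were treated likewise. For shares of a library, the test was a two-sided exact permutation over the 4 libraries. Alignments were counted from rises in depth, and isolated stretches gave their lengths. Other steps used Python 3.11.15, numpy 2.4.6, pandas 2.3.3, scipy 1.17.1 and matplotlib 3.10.9.

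The gene table was RefSeq's for B73 version 5 (5872 genes on chromosome 2), moved by 7855 bp beyond the b1TRs, where annotated tRNA genes best met the coverage. It gave no strand, so the planned profile of gene starts became one of both edges, and names were matched by symbol only. The b1 gene carries no such symbol and was not described. A bin with several kinds of gene was put in the first of structured RNA, protein-coding and other genes. The bins named are the 10 largest rises and falls in log2 change at an adjusted p under 0.05, without overlap, with at least 10 units in both libraries of the higher genotype and more than 5 kb apart. The b1TRs, pathway genes and RNA gene classes were named whatever their values, the classes with members of large and small change. Members and lists were chosen with earlier results of these data known. Alternatives changed the pseudocount, filter, scaling, trend, block, bin size and libraries. The library labelled ago104 and the tables named by length class were not used here. Intervals and limits cover counting error only.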

Additional observations from a re-analysis of the deposited data

How the results depend on the processing

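The count of lower bins, 15640, came to 1887 with a mean of 16 units, 6560 of 233336 without a filter, 9911 with scaling outside the top 1% of bins and 4475 of 9092 with bins of 5 kb. Leaving out each replicate in turn gave 564 to 16151, where the low values are those without an Mm library, which leaves only the mm libraries for the spread. The count of higher bins, 3903, came to 2521 with a mean of 16 units, 182 without a filter, 7350 with median-ratio scaling, 8978 with scaling outside the top 1%, 1541 with B73 in the fit, 2302 with scaling to tRNA, snRNA and snoRNA gene bins, 1783 with bins of 5 kb, and 1 to 3920 without single replicates. The scaling to RNA gene bins and the filter on B73 were chosen after seeing the data. No bin called in one direction was called in the other under any of these fits with 1 kb bins on the same grid.

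For covered bases, lower and higher calls were 1859 and 1647 with a pseudocount of 4, 745 and 1978 with a mean of 16 units, 3097 and 1587 with B73 in the fit and 1551 and 1381 with bins of 5 kb. They were 1122 to 16388 lower and 1 to 9248 higher without single replicates. The cause was not tested. Replicate numbers are shared by the genotypes, but same-numbered libraries did not deviate together (r = 0.0124 over tested bins). With the replicate block, 15967 bins were lower and 4344 higher by coverage, and 1414 and 1112 by covered bases.

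The share within 2 kb of genes, mm over Mm, was 0.662 by covered bases, 0.670 by alignment starts and 0.568 without the top 1% of bins, against 0.618. The share in bins of at least 40% 19-base stretches was 0.720 by covered bases, against 0.680. The 2 kb flanks gave 0.663, 0.652 and 0.559 under the same 3 settings, against 0.634. All 20 named bins kept their direction in every fit that tested them. They lost significance without either Mm library, and 4 did so without a filter. With 2 libraries a genotype and 1 alignment worth up to 1.07 units, bins near the filter rest on few alignments.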
